A study of Mus musculus with 2 samples.

Results

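Astrocytes of the mouse thalamus were described in 1482 cells, 1090 from mouse 1 and 392 from mouse 2, out of 15804 kept cells (6366 in mouse 1 and 9438 in mouse 2). The material was the thalamus of 2 C57BL/6J mice, wildtype, untreated and 2 months old, digested with enzymes to single cells, with 1 droplet library of 3′-end reads per mouse and no second genotype or treatment. Cells of all types were loaded together, so no sort or gate preceded the libraries. The astrocytes were selected on measured values: kept cells had at least 500 genes, at least 1000 UMIs (unique molecular identifiers, each a counted transcript molecule) and at most 15% mitochondrial UMIs, and an astrocyte had at least 5 UMIs per 10000 summed over Aqp4, Gja1 and Slc6a11. Cells with at least 100 Ttr UMIs, with at least 10 UMIs of the myelin genes Mog, Mag and Ermn, or with more than 2 UMIs of Pdgfra, Cldn5 or Cx3cr1 were left out, which removed 89 of 1179 cells in mouse 1 and 57 of 449 in mouse 2.

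Astrocytes are the glial cells that take up glutamate, GABA and potassium around synapses, pass small molecules among themselves through connexin channels and feed neurons with glucose-derived fuel. They end on blood vessels in endfeet rich in the water channel aquaporin 4. Protoplasmic astrocytes fill grey matter, while fibrous astrocytes of white matter and those under the brain surface carry more of the intermediate filament protein GFAP. Angiotensinogen, the precursor of the angiotensin peptides, is made in the brain mainly by astrocytes, and more so outside the telencephalon than in cortex.

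The astrocyte share of kept cells was 17.1% in mouse 1, with an exact 95% binomial interval of 16.2 to 18.1%. In mouse 2 the share was 4.15%, with an interval of 3.76 to 4.58%. These intervals, like all intervals given here, cover counting error only. Cells with neuronal markers numbered 437 in mouse 1 and 2358 in mouse 2. How far dissociation or loading set these shares was not tested. The median astrocyte held 14297.5 UMIs and 4255.5 genes in mouse 1, and 9199 UMIs and 3498 genes in mouse 2, where the median other cell held 20435 and 15344 UMIs. Summed astrocyte UMIs came to 16295595 and 4103615. The 2 libraries had 36 barcodes in common, none of them an astrocyte in both.

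Slc4a4 and Agt had no part in the selection rule. They were chosen as markers with earlier results of these data known, so their levels are a description. Slc4a4, the sodium bicarbonate cotransporter of astrocytes, had 4263 and 3493 CPM (UMIs of a gene per 1000000 UMIs, in counts summed over cells) in astrocytes of mouse 1 and mouse 2, against 86.9 and 75.4 CPM in the other kept cells. Agt, which encodes angiotensinogen, had 846.4 and 565.8 CPM in astrocytes, against 12.2 and 2.73 CPM in the other kept cells. Of the 3 genes that chose the cells, Aqp4 (aquaporin 4) had 595.6 and 671.4 CPM, against 9.30 and 3.41 CPM in the rest. Gja1 (connexin 43) had 905.8 and 1102 CPM, against 17.2 and 5.65 CPM. Slc6a11 (the GABA transporter GAT-3) had 2054 and 1931 CPM, against 31.4 and 14.1 CPM. The median cell held 34.8 UMIs per 10000 of these 3 genes in mouse 1 and 39.4 in mouse 2, far above the limit of 5. The 42 and 29 cells just inside it, below 10 per 10000, had Agt at 102.9 and 70.6 CPM, and the 16 and 19 cells just outside it, between 2.5 and 5 per 10000, had Agt at 62.2 and 31.5 CPM. Slc4a4 stood at 957.2 and 838.8 CPM inside and at 20.7 and 450.7 CPM outside. The neuronal gene Snap25 stood at 751.5 and 864.5 CPM inside and at 331.7 and 1551 CPM outside. Median depth just inside was 1169.5 and 10854 UMIs, so the edge of the selection was mixed.

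Markers of other cell types were present within the selected cells and differed between the mice. More than 2 UMIs of the neuronal genes Snap25 or Syt1 were found in 39 astrocytes of mouse 1 (3.58%) and 46 of mouse 2 (11.7%). More than 2 UMIs of the ependymal genes Ccdc153 or Tmem212 were found in 2 cells of mouse 1 (0.184%) and 17 of mouse 2 (4.34%). The mural genes Rgs5, Vtn or Acta2 passed 2 UMIs in 20 and 9 cells. Scrublet, a caller of doublets, marked 17 and 8 astrocytes, among 179 and 251 marked barcodes in all, 2.81% and 2.66% of the kept cells where 6.31% and 9.69% were expected. Without any of these cells 1026 and 321 astrocytes remained, and these are called the marker-restricted astrocytes. Summed over the 3 ependymal markers, the selected cells had 14.5 and 259.0 CPM and the marker-restricted cells 4.15 and 4.6 CPM. Summed over the 5 neuronal markers they had 131.1 and 459.4 CPM, and 54.0 and 158.3 CPM after the restriction. The 5 oligodendrocyte markers summed to 510.8 and 555.4 CPM in astrocytes and to 14690 and 14700 CPM in the other kept cells. Haemoglobin transcripts made up 2852 and 263.7 CPM of the astrocyte sums, and a single cell held 40.5% of them in mouse 1 and 78.2% in mouse 2.

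Because the selection itself sets astrocytes against the rest, levels of all other genes are given as a description, without a test. A gene was called higher or lower where its CPM differed at least 2-fold in the same direction in each mouse, with at least 20 CPM on the higher side. Of 8452 genes with that level, 1044 were higher in astrocytes (12.4%) and 1862 were lower (22.0%), with a median log2 ratio of -0.23. The gene groups below are read against that background. Where a group holds Aqp4, Gja1 or Slc6a11, the higher call of that gene was set by the selection.

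Transmitter uptake was the group most fully on the astrocyte side. Of the 13 measured genes of glutamate and GABA uptake and the glutamine cycle 12 were higher and none was lower, with a median log2 ratio of 3.73. Slc1a2, the main glutamate transporter GLT-1, had 3972 and 3411 CPM in astrocytes, against 151.8 and 298.9 CPM in the other kept cells. Slc1a3, the second glial glutamate transporter GLAST, had 1143 and 1282 CPM, against 81.8 and 60.7 CPM. Both glutamate transporters were far higher in astrocytes of each mouse. Slc7a10, the serine and alanine exchanger Asc-1, stood at 571.2 and 455.0 CPM, against 8.05 and 2.95 CPM. The exception was Glul, the glutamine synthetase gene, with 864.2 and 813.2 CPM in astrocytes, against 1152 and 566.3 CPM in the other kept cells. Glul was highest in the cells with oligodendrocyte markers in both mice, so it did not separate astrocytes here.

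Of 20 genes of potassium and water handling, 17 were higher in astrocytes and 2 were lower. The higher ones include Aqp4, whose call was set by the selection. Kcnj10, the inwardly rectifying channel Kir4.1, had 520.3 and 531.0 CPM, against 129.2 and 115.2 CPM in the other kept cells. The dystrobrevin gene Dtna, part of the complex that anchors aquaporin 4 at endfeet, had 1338 and 1036 CPM, against 188.3 and 241.1 CPM. The 2 lower genes were Atp1b1, the sodium pump beta subunit of neurons, at 23.6 and 66.5 CPM against 403.0 and 553.9 CPM, and Slc12a2, the NKCC1 cotransporter, at 35.2 and 39.0 CPM against 482.4 and 388.9 CPM. Among connexin and adhesion genes 12 of 18 were higher and 2 lower. Gjb6 (connexin 30), the partner of Gja1 in astrocyte coupling, had 548.5 and 427.7 CPM, against 8.67 and 2.06 CPM. The adhesion gene Lsamp had 11330 and 10400 CPM in astrocytes, against 1393 and 3637 CPM in the other kept cells.

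Fuel and lipid genes were more mixed. Of 18 genes of glucose, glycogen and lactate handling 10 were higher and none lower. They included Aldoc, the aldolase isoform of astrocytes, at 1089 and 1229 CPM against 42.8 and 45.3 CPM, the glycogen phosphorylase genes Pygb and Pygm, and the glycogen synthase gene Gys1 at 53.7 and 43.9 CPM against 12.6 and 21.3 CPM. The glycolytic gene Pkm was not on the astrocyte side, with 153.0 and 165.2 CPM against 259.0 and 273.8 CPM, and Ldhb stood at 312.4 and 332.6 CPM against 192.0 and 229.6 CPM. Of 21 lipid genes 9 were higher and 1 lower. Apoe, the main lipid carrier that astrocytes secrete, had 4484 and 5369 CPM in astrocytes, against 1019 and 439.2 CPM in the other kept cells. Clu, another secreted lipoprotein component, had 812.9 and 1010 CPM, against 37.0 and 38.3 CPM. The lower gene was the cholesterol exporter gene Abcg1, at 3.01 and 6.82 CPM against 81.9 and 76.5 CPM, while its relative Abca1 was higher, at 250.3 and 269.5 CPM against 88.4 and 50.5 CPM.

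Of 14 measured genes for secreted factors that act on synapses and for phagocytosis, 9 were higher and none lower. The glypican gene Gpc5 had 6241 and 7797 CPM, against 111.5 and 306.1 CPM in the other kept cells, and Sparcl1, which encodes hevin, a promoter of synapse formation, had 2421 and 1895 CPM against 326.6 and 157.0 CPM. The thrombospondin genes stayed below the level set for a call, with Thbs1 at 0.307 and 3.90 CPM, Thbs4 at 0.123 and 0 CPM, and Thbs2 at 15.1 and 14.1 CPM in astrocytes, against 1.48 and 1.21 CPM for Thbs2 in the other kept cells. The phagocytic receptor genes Mertk and Megf10 were both higher in astrocytes. Of 32 receptor and calcium signalling genes 21 were higher and 4 lower. The cation channel gene Trpm3 had 9195 and 6534 CPM, against 479.8 and 503.7 CPM, and Plcb1, the phospholipase C of receptor signalling, had 3347 and 2156 CPM against 299.9 and 252.1 CPM. Receptor genes on the astrocyte side included Fgfr3 (418.1 and 429.4 CPM against 7.55 and 4.06 CPM), the neurotensin receptor gene Ntsr2 (579.7 and 495.4 CPM against 11.4 and 4.38 CPM), the endothelin receptor gene Ednrb (251.0 and 343.1 CPM against 12 and 13.6 CPM) and the adrenergic receptor gene Adra1a (101.4 and 116.2 CPM against 3.78 and 14.9 CPM). Grm5, a glutamate receptor known best from young astrocytes, was lower, at 75.6 and 102.6 CPM against 169.2 and 504.7 CPM, while Grm3, the astrocytic group II receptor, was called neither way, with 743.5 and 564.9 CPM against 514.7 and 347.7 CPM.

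**Figure D1:**
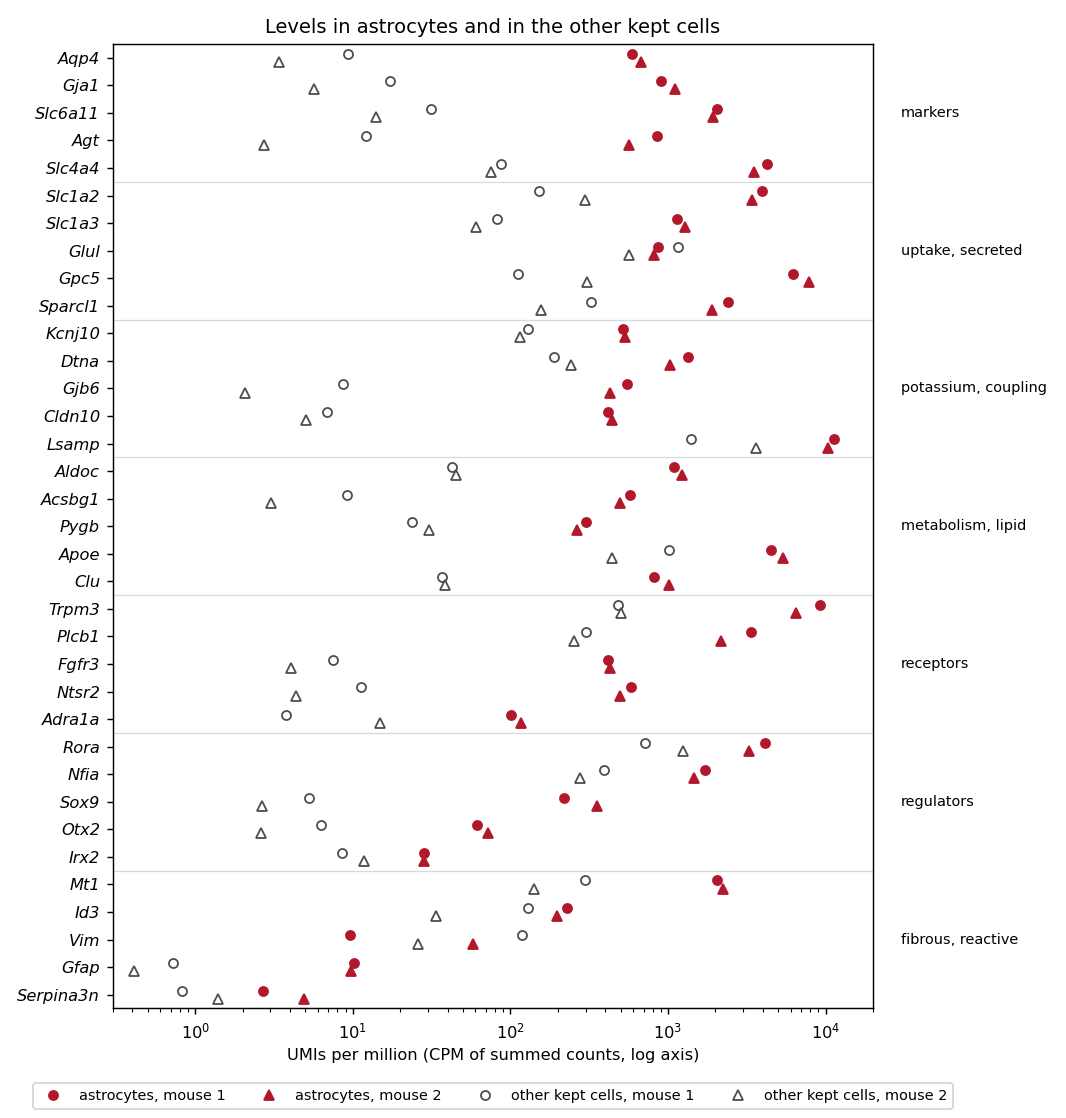
Levels of 35 genes (5 from each of 7 groups) in CPM of summed counts, on a log axis, in astrocytes (filled) and in the other kept cells (open) of mouse 1 (circles) and mouse 2 (triangles). The filled symbols lie to the right of the open ones for most genes, while Glul and Vim cross in mouse 1, and Gfap lies at 10.1 and 9.75 CPM.

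Regional genes from outside the telencephalon were mostly on the astrocyte side. Of 17 measured genes listed for astrocytes of the diencephalon and regions behind it, 10 were higher and none lower. The homeobox genes Otx2, Irx1, Irx2 and Irx5, which pattern the brain behind the telencephalon in development, were all higher, with Otx2 at 61.4 and 71.9 CPM against 6.29 and 2.60 CPM. Itih3, an inhibitor chain that binds hyaluronan, had 394.0 and 236.4 CPM against 28.9 and 12.1 CPM. Gbx2 and Lhx9, which mark thalamic neurons, stayed at 1.17 and 3.41 CPM and at 2.33 and 4.63 CPM in astrocytes, against 7.1 and 29.9 CPM and 19.5 and 57.5 CPM in the other kept cells. Of 4 measured genes listed for telencephalic astrocytes, Unc13c and Mfge8 were higher and Cryab and Lef1 lower. The forebrain regulators Emx2 and Lhx2 were scarce: Emx2 had 0.184 and 0.244 CPM, and Lhx2 had 0.491 and 3.66 CPM. Of 22 lineage regulators 17 were higher in astrocytes and 1 was lower. Among them Rora had 4103 and 3288 CPM against 713.5 and 1247 CPM, Nfia, a driver of astrocyte formation, had 1712 and 1456 CPM against 392.3 and 275.7 CPM, and Sox9 had 219.9 and 354.1 CPM against 5.28 and 2.66 CPM.

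Genes of grey matter astrocytes were more often on the astrocyte side than those of white matter and surface astrocytes, a difference that was not tested. Of 24 measured protoplasmic genes 20 were higher in astrocytes than in the other cells and none was lower, with a median log2 ratio of 3.86. Of 18 fibrous and subpial genes 6 were higher and 2 lower, with a median of 0.46. The higher ones included the metallothionein genes Mt1, Mt2 and Mt3, with Mt1 at 2046 and 2248 CPM against 299.5 and 140.9 CPM. Of the 8 reactive astrocyte genes that reached the level, none was higher and 4 were lower, among them the class I gene H2-D1 at 11.8 and 10.7 CPM against 135.2 and 41.7 CPM. Other reactive genes were scarce in absolute terms: Lcn2 had 0.184 and 0 CPM, Cxcl10 had 0 and 0.487 CPM, and C3 had 0.368 and 2.92 CPM in astrocytes. Of 10 cell cycle genes 3 reached the level, and of these Pcna and Ccnd1 were lower in astrocytes and Ccnd2 was neither. Mki67 and Cdk1 had 0 UMIs in the astrocytes of both mice, so they were not detected at this depth. In the angiotensin group, Agt was the gene on the astrocyte side. Renin (Ren1) had 0.123 and 0 CPM, the converting enzyme gene Ace 0.859 and 0.731 CPM, and the receptor genes Agtr1a and Agtr2 0.0614 and 0 CPM and 0 and 0 CPM in astrocytes. The vascular growth factor gene Vegfa and the vessel-stabilising Angpt1 were both higher in astrocytes, Vegfa at 191.9 and 204.7 CPM against 25.3 and 25.7 CPM.

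Agt and Gfap varied among the astrocytes in different ways. Gfap (11:102887336-102900912, minus strand) and Agt (8:124556534-124569706, minus strand), both protein-coding genes placed by GENCODE vM21 on GRCm38, were read in 1040 and 351 cells that had at least 5000 UMIs, each thinned at random to 5000, while 50 and 41 shallower cells were left out. Agt was found in 938 of 1040 thinned cells of mouse 1 (90.2%, interval 88.2 to 91.9%) and in 275 of 351 cells of mouse 2 (78.3%, 73.7 to 82.5%). The median cell held 4 Agt UMIs in mouse 1 and 2 in mouse 2, with a mean of 4.76 ± 4.0 (SD over cells) and 3.35 ± 3.48, and the highest cell held 30 and 22. In cells with oligodendrocyte markers, thinned alike, Agt was found in 2.00% and 0.400%, although their median depth before thinning was larger (25666.5 and 15189 UMIs, against 14656.5 and 9850 for the astrocytes). Before thinning, Agt was found in 94.7% and 86.0% of astrocytes. Agt was thus found in most astrocytes of both mice, in amounts that ranged widely from cell to cell.

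Gfap was found in few. In thinned cells it was present in 39 of 1040 astrocytes of mouse 1 (3.75%, 2.68 to 5.09%) and 10 of 351 of mouse 2 (2.85%, 1.37 to 5.18%), against 0.500% and 0.300% of oligodendrocyte-marker cells. Before thinning the shares were 6.42% and 4.59%. In sum Gfap had 10.1 CPM (8.64 to 11.8) in mouse 1 and 9.75 CPM (6.96 to 13.3) in mouse 2, against 0.725 and 0.408 CPM in the other kept cells. Its UMIs were concentrated, since the 10 richest cells held 41.8% of the 165 Gfap UMIs in mouse 1 and 80.0% of the 40 in mouse 2. Cells with at least 1 Gfap UMI had a mean of 5.44 Agt UMIs in mouse 1 and 6.00 in mouse 2, against 4.73 and 3.27 in cells with none, so Gfap-positive cells also carried Agt.

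**Figure D2:**
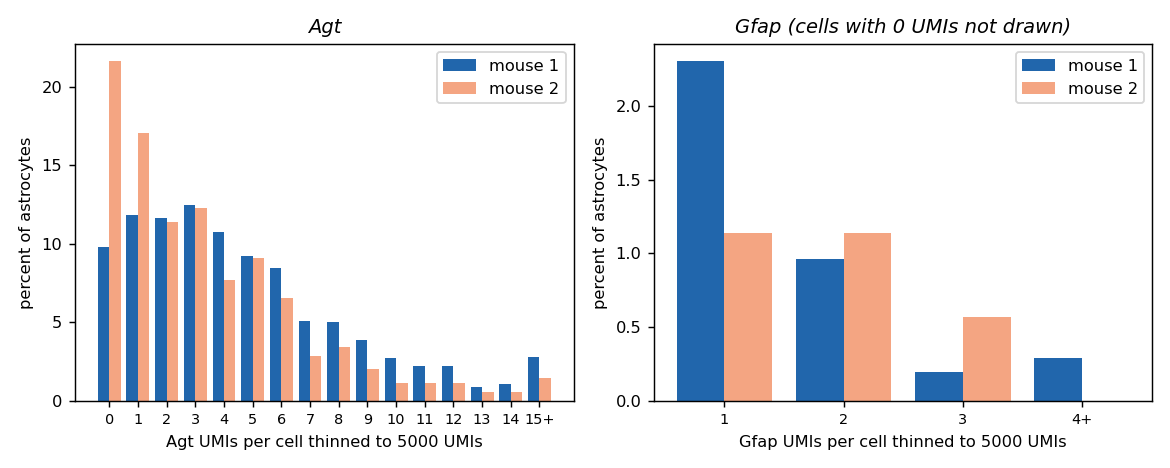
Share of astrocytes (percent) by the number of Agt UMIs (left) and Gfap UMIs (right) per cell after thinning to 5000 UMIs, for mouse 1 and mouse 2. Agt spreads over a wide range, with 9.81% and 21.7% of cells at 0, while Gfap is drawn only for the few cells with at least 1 UMI.

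Cells were split by Gfap and the other genes were then compared. Gfap-high cells had at least 3 Gfap UMIs after thinning and numbered only 5 in mouse 1 and 2 in mouse 2, and Gfap-negative cells, with 0, numbered 1001 and 341, with 34 and 8 cells between them. Unthinned counts were summed per mouse and level and tested with edgeR's quasi-likelihood test, with mouse as a block and Benjamini-Hochberg adjustment over all genes tested. Calls were made at an adjusted p below 0.05 where the fold change reached 1 on the log2 scale in either direction. Of 5923 genes tested, 55 were higher in Gfap-high cells (0.929%) and 41 lower (0.692%). The lower calls shifted with the scaling: with DESeq2's size factors in edgeR the counts were 57 higher and 22 lower, and with DESeq2 itself 60 and 4. None of the 7 Gfap-high cells passed 2 UMIs of a neuronal, ependymal or mural marker or was called a doublet, and their median depth was 6881 UMIs in mouse 1 and 12330.5 in mouse 2, against 14710 and 9850 in Gfap-negative cells. Their median mitochondrial share was 6.04% and 4.11%, against 4.95% and 3.95%, and at a limit of 5% only 2 of the 5 cells of mouse 1 remained. The 3 red blood cell markers summed to 282.8 and 40.6 CPM in Gfap-high cells against 2614 and 268.2 CPM in Gfap-negative cells, the 5 neuronal markers to 53.0 and 243.3 CPM against 128.8 and 462.0 CPM, and the 3 ependymal markers to 0 and 81.1 CPM against 14.9 and 272.3 CPM. The part of these in the calls was not tested. Against marker-restricted Gfap-negative cells, 73 of 5042 genes were higher (1.45%) and 44 lower (0.873%).

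Lists of fibrous and protoplasmic genes were counted in this split. Of 27 fibrous and subpial genes 20 passed the filter on low counts, and 9 of these were higher and none lower, with a median log2 fold change of 1.84, against -0.17 over all genes tested. Of the 24 protoplasmic genes tested none was higher and 5 were lower, with a median of -0.99. Of 38 reactive genes 5 passed the filter, and 3 of these, Vim, C4b and Serpina3n, were higher. Serpina3n and Vim stand on both the fibrous and the reactive list. With so few cells in the Gfap-high sums, a scarce gene passed the filter mainly where it was high there, so these counts are a description. With 1 Gfap UMI as the cut in marker-restricted cells, 5 of 20 fibrous genes were higher and 1 lower. Over all genes tested at that cut the shares were 0.334% and 0.0993%. None of 25 protoplasmic genes was called, which is close to those shares.

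Among the fibrous genes Tnc, the matrix protein tenascin C, had 282.8 and 162.2 CPM in Gfap-high cells of mouse 1 and mouse 2, 28.2 and 28.6 CPM in the cells between, and 7.78 and 6.18 CPM in Gfap-negative cells (log2 fold change 4.79 ± 0.72 SE). It was found in 6 of the 7 Gfap-high cells. Vim, the intermediate filament vimentin that assembles with GFAP, had 247.5 and 243.3 CPM in Gfap-high cells, against 7.90 and 58.7 CPM in Gfap-negative cells (3.31 ± 0.68). In mouse 2 most of the Vim in Gfap-negative cells went with the cells that held other markers, and without those it was 3.14 CPM. Fbxo2, a ubiquitin ligase subunit, had 194.5 and 243.3 CPM against 21.7 and 28.3 CPM (2.89 ± 0.58, adjusted p = 0.0038). Fabp7, the brain fatty acid carrier of radial glia and astrocytes, had 866.2 and 1135 CPM against 194.9 and 255.6 CPM (1.91 ± 0.28, adjusted p = 6.4e-05). Vim, Fbxo2 and Fabp7 were found in 5, 4 and 7 of the 7 cells. In mouse 2 Vim and Fbxo2 were each found in 1 of the 2 cells, with 6 UMIs. Tnc and Vim passed the filter on low counts only with the Gfap-high sums counted, so their values are a description. With no filter both were still called.

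The complement gene C4b, known from reactive and ageing astrocytes, had 406.6 and 40.6 CPM in Gfap-high cells and 3.83 and 2.83 CPM in Gfap-negative cells (5.82 ± 0.95). A single cell held 66.7% of its 24 UMIs in the Gfap-high cells. Serpina3n, another gene of reactive astrocytes, rested on 8 UMIs in 3 cells, 123.7 and 40.6 CPM against 2.3 and 4.89 CPM (4.65 ± 1.22). C4b and Serpina3n passed the filter on low counts only through the Gfap-high sums, so their values are a description. With no filter both were still called. Aqp4, one of the genes that chose the astrocytes, had 2669 and 2352 CPM in Gfap-high cells, 897.5 and 1444 CPM in the cells between, and 579.8 and 651.2 CPM in Gfap-negative cells in the 2 mice. These Aqp4 values are a description with no test.

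Outside the lists, transporter genes led the higher calls. Slc38a1, the amino acid transporter SNAT1, had 1273 and 1663 CPM in Gfap-high cells, 151.8 and 100.1 CPM in the cells between, and 37.3 and 81.6 CPM in Gfap-negative cells (4.47 ± 0.32, adjusted p = 2.8e-11). Slc6a6, the taurine transporter, had 247.5 and 486.6 CPM against 8.10 and 8.49 CPM (5.09 ± 0.64). Emb, which encodes embigin, a partner protein of monocarboxylate transporters, had 441.9 and 770.4 CPM against 1.53 and 14.9 CPM (6.57 ± 0.65). Slc16a1, the monocarboxylate transporter MCT1, had 229.8 and 202.7 CPM against 35.8 and 35.3 CPM (2.40 ± 0.55). Slc6a6, Emb and Slc16a1 passed the filter on low counts only with the Gfap-high sums counted, so their values are a description. With no filter Slc6a6 and Emb were still called and Slc16a1 was not. Slc38a1, Slc6a6 and Emb were found in 6, 4 and 4 of the 7 cells. In mouse 2 each of these 3 genes was found in 1 of the 2 cells, with 41, 12 and 19 UMIs, so their values there are those of 1 cell. Among the other higher calls were Pdzrn3, Sulf2, Bcl2l11 and Cdon, each resting on 8 to 13 UMIs in the Gfap-high cells. They too passed the filter only through those cells.

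The lower calls included Slc1a2, with 2068 and 2190 CPM in Gfap-high cells against 3990 and 3440 CPM in Gfap-negative cells (-1.06 ± 0.25, adjusted p = 0.014), and Gpc5, with 3129 and 2149 CPM against 6319 and 7915 CPM (-1.62 ± 0.27, adjusted p = 0.00025). The Gfap-high cells were not alike in these. Gpc5 was found in 3 of the 7, and 1 cell held 76.5% of its 230 UMIs there. Slc1a2 was found in all 7. Its difference was below 2-fold in each mouse, with log2 values of -0.948 and -0.651. It was not called with DESeq2 (-0.953) or with DESeq2's size factors in edgeR (-0.955). Unc13c, a vesicle-priming gene listed for telencephalic astrocytes, had 3 UMIs in all of the Gfap-high cells, at 53.0 and 0 CPM, against 558.3 and 345.1 CPM in Gfap-negative cells. Cst3, the secreted protease inhibitor cystatin C, did not follow the level of Gfap in order: it had 1043 and 1744 CPM in Gfap-high cells, 4314 and 4288 CPM in the cells between, and 2836 and 2636 CPM in Gfap-negative cells (-1.30 ± 0.27, adjusted p = 0.0044). Mid1 and Dcc had 0 UMIs in the 7 cells. The haemoglobin genes Hbb-bs, Hba-a1 and Hba-a2 were also among the lower calls, with Hbb-bs at 159.1 and 0 CPM in Gfap-high cells against 1455 and 155.5 CPM in Gfap-negative cells.

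**Figure D3:**
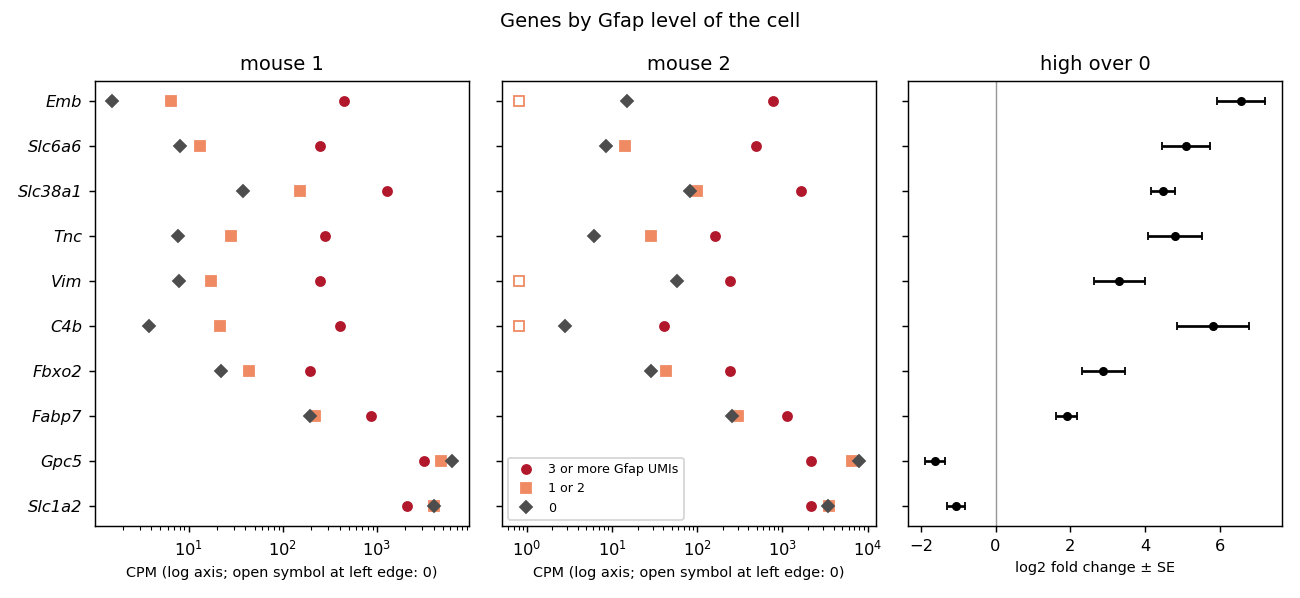
CPM of 10 genes in Gfap-high cells (3 or more Gfap UMIs), in cells with 1 or 2, and in cells with 0, for mouse 1 and mouse 2 on log axes, and the log2 fold change of Gfap-high over Gfap-negative with its SE. The 8 upper genes are highest in Gfap-high cells of both mice, and Gpc5 and Slc1a2 are lowest there.

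A wider cut used more cells: 37 and 8 marker-restricted cells with at least 1 Gfap UMI against 946 and 279 with none. Of 11076 genes, 37 were higher (0.334%) and 11 lower (0.0993%), and 34 of these 48 were also among the 96 calls of the stricter cut. Slc38a1 had 258.7 and 617.9 CPM in cells with Gfap against 35.2 and 26.2 CPM in cells without (3.44 ± 0.26, adjusted p = 5.7e-35). Tnc had 57 and 51.5 CPM against 7.09 and 5.59 CPM (2.98 ± 0.53), and Vim had 44.8 and 77.2 CPM against 3.06 and 3.14 CPM (4.0 ± 0.63). Tnc and Vim passed the filter on low counts only with the sums of cells with Gfap counted, so their values are a description. Ano1, a calcium-activated chloride channel, had 93.7 and 141.6 CPM against 13.8 and 9.08 CPM (3.01 ± 0.38, adjusted p = 7.6e-12), and Padi2, a peptidylarginine deiminase, had 103.9 and 38.6 CPM against 11.8 and 18.5 CPM (2.65 ± 0.39, adjusted p = 2.2e-08). Id4, an inhibitor of basic helix-loop-helix factors, had 213.9 and 321.8 CPM against 84.5 and 71.6 CPM (1.55 ± 0.27, adjusted p = 4.1e-06). Unc13c had 158.9 and 154.5 CPM against 567.6 and 380.8 CPM (-1.76 ± 0.27, adjusted p = 6e-08). In mouse 2 the cells with fewer Gfap UMIs added no Tnc and no Vim UMI: all 4 Tnc and all 6 Vim UMIs of its cells with Gfap lay in the 2 Gfap-high cells, as did 41 of its 48 Slc38a1 UMIs, and for Vim and Slc38a1 these were in 1 cell. Slc6a6, Slc38a1, Tnc and Unc13c kept their direction in all 14 settings tried. These settings reuse the same cells, so they are no independent support, and the Slc6a6 and Tnc values remain a description. Fabp7, Fbxo2, Slc16a1, Slc1a2 and Gpc5 were not called at this wider cut. At the stricter cut, edgeR without the mouse block made 21 calls, and Emb, Vim, Slc1a2, Gpc5, Cst3 and Serpina3n were not among them.

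Cells were also ranked by Agt within each mouse and split into 3 groups of like size. The Agt-high group held 346 and 117 cells and the Agt-low group 347 and 117. The median cell had 12854.5 and 7966 UMIs in the Agt-high group, against 16483 and 11663 in the Agt-low group. Of 12900 genes, 26 were higher in Agt-high cells (0.202%) and 428 lower (3.32%). Cells with markers of other types were unevenly spread over these groups. In mouse 2 the Agt-low group held 16 of the ependymal-marker cells, against 0 in the Agt-high group, and the 3 ependymal markers summed to 5.51 and 3.80 CPM in Agt-high cells against 30.3 and 617.1 CPM in Agt-low cells. The 5 neuronal markers summed to 64.0 and 200.6 CPM against 234.9 and 793.4 CPM, and the 4 mural markers to 29.3 and 11.4 CPM against 253.6 and 353.3 CPM. The 3 red blood cell markers summed to 189.4 and 58.9 CPM in Agt-high cells against 3672 and 576.5 CPM in Agt-low cells. In marker-restricted cells the red blood cell markers still summed to 189.0 and 54.3 CPM in Agt-high cells against 1152 and 823.2 CPM in Agt-low cells. Their part in the calls was not tested. The lower calls began with genes of ependymal cilia. Tmem212 and Ccdc153 had 0 UMIs in Agt-high cells of both mice, against 14.7 and 329.5 CPM and 9.90 and 225.1 CPM in Agt-low cells, and the axonemal dynein genes Dnah6 and Dnah12 and the radial spoke gene Rsph1 were among them. Without cells that held other markers, 59 of 12235 genes were higher (0.482%) and 99 lower (0.809%), and 70 of these 158 calls were shared with the first comparison. In all selected cells, edgeR without the mouse block called 0 of 12900 genes, with 928 at an unadjusted p below 0.05, while DESeq2 with the block called 315.

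Igsf1, Nkain4, Itih3, Hes5 and Fzd2 were higher in Agt-high cells in all 13 settings tried. The first 4 passed the test in 12 of these, all but the one without the block, and Fzd2 passed it in 11. Without the block the log2 fold change was 1.80 for Igsf1 and 1.60 for Fzd2. Igsf1, an immunoglobulin superfamily membrane protein, had 120.4 and 101.7 CPM in Agt-high cells, 75.4 and 32.4 CPM in the middle group, and 40.4 and 18.8 CPM in Agt-low cells (log2 fold change 1.84 ± 0.24 SE, adjusted p = 0.0014, and 1.57 ± 0.15 in marker-restricted cells). Nkain4, a partner of the sodium pump, had 236.2 and 274.8 CPM against 75.9 and 120.7 CPM (1.40 ± 0.17, adjusted p = 0.00032). Fzd2, a Wnt receptor, had 46.8 and 56.1 CPM against 10.2 and 25.6 CPM (1.70 ± 0.34, adjusted p = 0.029). Itih3 had 556.9 and 419.3 CPM, 401.8 and 200.2 CPM, and 270.2 and 125.7 CPM in the Agt-high, middle and Agt-low groups (1.34 ± 0.18, adjusted p = 0.0011). Hes5, the Notch target that keeps progenitors and glia undifferentiated, had 94.4 and 101.7 CPM against 39.1 and 38.8 CPM (1.28 ± 0.16, adjusted p = 0.00029). All 5 genes had their highest level in the Agt-high group of both mice.

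Cst3 and Apoe followed Agt as well. Cst3 had 4389 and 4029 CPM in Agt-high cells against 1789 and 1733 CPM in Agt-low cells (1.23 ± 0.13, adjusted p = 0.00012), but in marker-restricted cells its log2 fold change was 0.97 and it was not called. Apoe had 6330 and 7598 CPM against 3089 and 3740 CPM (1.00 ± 0.13, adjusted p = 0.00045), which lies at the fold limit, and it was called in 4 of 13 settings. Mfge8, the bridging protein of phagocytosis, had 214.6 and 223.4 CPM against 98.0 and 105.7 CPM (1.08 ± 0.13, adjusted p = 0.00032), and was called in 7 of 13 settings. Phgdh, the first enzyme of serine synthesis, had 159.2 and 134.0 CPM against 71.1 and 49.4 CPM (1.23 ± 0.15, adjusted p = 0.00032), and was called in 11 of 13 settings, but not in marker-restricted cells or without the block. Tnc was higher in Agt-high cells too, at 15.2 and 10.5 CPM against 4.31 and 5.0 CPM (1.54 ± 0.38, adjusted p = 0.034). In mouse 2 this rested on 11 UMIs in Agt-high cells and 8 in Agt-low cells. Tnc was called in 8 of 13 settings, and not with DESeq2. Nkx6-2, a homeobox gene, had 50.3 and 50.4 CPM against 13.6 and 16.3 CPM (1.76 ± 0.20, adjusted p = 0.00023). Nkx6-2 was found in 12.1% and 12.3% of thinned astrocytes and in 75% and 70.6% of oligodendrocyte-marker cells, and the 5 oligodendrocyte markers summed to 499.5 and 651.2 CPM in Agt-high cells against 455.4 and 455.2 CPM in Agt-low cells. Their part in the Nkx6-2 difference was not tested.

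**Figure D4:**
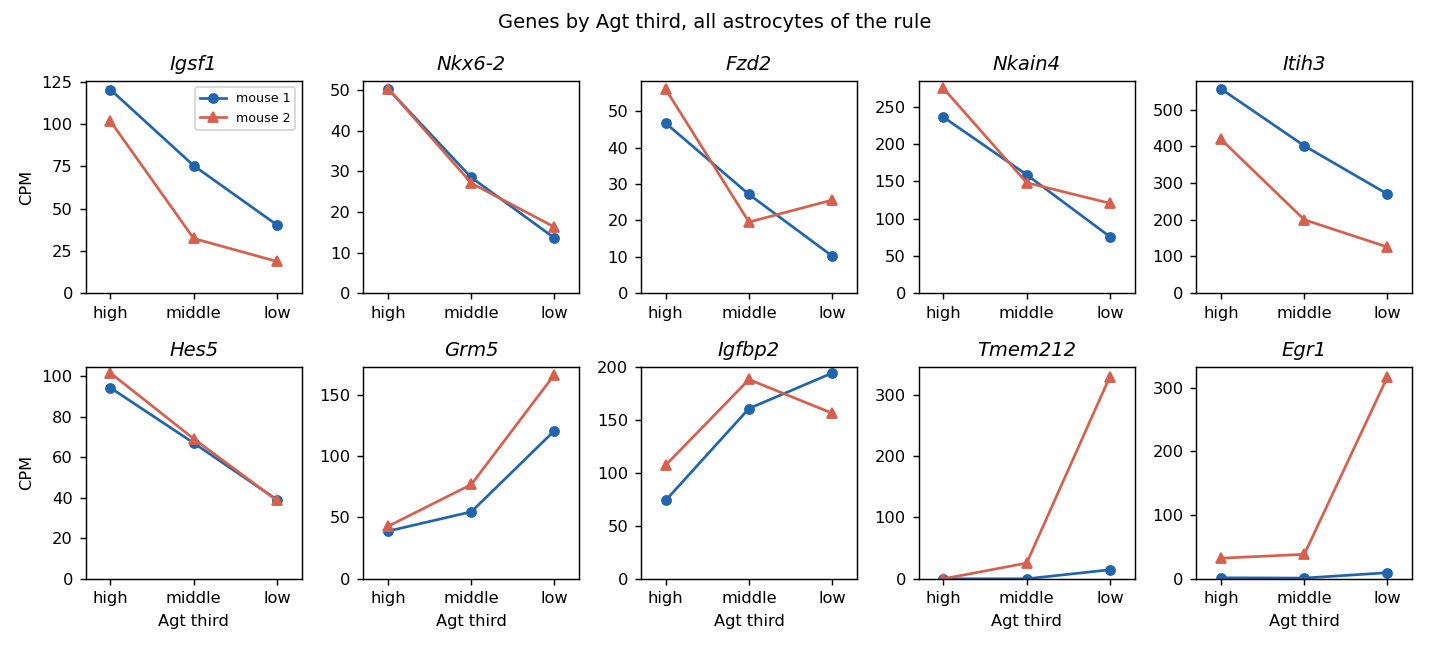
CPM of 10 genes in the Agt-high, middle and Agt-low groups of all selected astrocytes of mouse 1 and mouse 2. Igsf1, Nkx6-2, Fzd2, Nkain4, Itih3 and Hes5 are highest in the Agt-high group of both mice, and Tmem212 and Egr1 are high in the Agt-low group of mouse 2.

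Among the lower genes in marker-restricted cells were receptors and signalling genes. Gria4, an AMPA receptor subunit, had 63.4 and 77.2 CPM in Agt-high cells, 118.3 and 96.1 CPM in the middle group, and 201.9 and 200.4 CPM in Agt-low cells (-1.69 ± 0.12, adjusted p = 4.6e-13). Vav3, a guanine nucleotide exchange factor, had 197.9 and 214.6 CPM against 441.8 and 453.3 CPM (-1.21 ± 0.08, adjusted p = 2.4e-13). Esrrg, an orphan nuclear receptor, had 270.7 and 223.0 CPM against 640.0 and 424.3 CPM (-1.22 ± 0.09, adjusted p = 1.7e-12). Igfbp2, which binds insulin-like growth factors, had 70.9 and 114.5 CPM against 197.8 and 180.4 CPM (-1.31 ± 0.13, adjusted p = 7.1e-08). Grm5 had 34.8 and 45.8 CPM against 94.0 and 65.3 CPM (-1.30 ± 0.17, adjusted p = 4.1e-07). These 5 genes were lower in Agt-high cells of both mice. Gria4 and Grm5 were called in 12 of 13 settings, Igfbp2 in 11, Vav3 in 10 and Esrrg in 8. Esrrg was not called in the first comparison of all selected cells or with DESeq2.

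The immediate early genes depended on the cells included. In all selected cells 5 of 33 were lower in Agt-high cells and none was higher, beside 3.32% and 0.202% of all genes tested. Egr1 had 1.54 and 32.3 CPM against 9.58 and 317.0 CPM (-3.15 ± 0.23, adjusted p = 8.1e-06). In marker-restricted cells none of 30 was lower and 1 was higher, beside 0.809% and 0.482% of all genes tested. The absence of lower calls is close to that share. Egr1 was not called and had a log2 fold change of 0.61. Fos was the higher one, at 1.64 and 94.0 CPM against 1.97 and 28.1 CPM (1.26 ± 0.33, adjusted p = 0.011). This Fos difference lay in mouse 2 only, since in mouse 1 Agt-high cells had the lower value. Fos was called in 10 of 13 settings, but was higher in Agt-high cells in only 1 of them, the marker-restricted one. In the other settings its direction was the opposite.

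The astrocytes of the 2 mice differed in these activity genes. With 1 library per mouse there is no test, and a gene was called at a 2-fold difference with at least 20 CPM on the higher side. Of 7796 genes 25 were higher in mouse 1 (0.321%) and 441 higher in mouse 2 (5.66%). Of 26 immediate early and stress genes 17 were higher in mouse 2 and none in mouse 1. Fos had 3.07 CPM in mouse 1 and 200.3 CPM in mouse 2, and was found in 13 of 1040 thinned cells (1.25%) of mouse 1 and in 95 of 351 (27.1%) of mouse 2. Egr1 had 4.6 CPM in mouse 1 and 152.5 CPM in mouse 2, and Jun 18.2 and 231.0 CPM. The other kept cells of the same libraries differed the same way, with Fos at 39.1 CPM in mouse 1 and 531.0 CPM in mouse 2, and oligodendrocyte-marker cells held Fos in 1.5% and 37.8%. The difference was thus not confined to astrocytes. In marker-restricted astrocytes Fos had 2.01 CPM in mouse 1 and 68.3 CPM in mouse 2, and Hsp90aa1, a heat shock protein, had 153.2 and 128.4 CPM there and 181.0 and 435.2 CPM in all selected cells. Of the other lists, none of 13 uptake genes and none of 25 protoplasmic genes differed by this rule. Higher in mouse 2 were 3 of 4 reactive genes, 2 of 17 fibrous and subpial genes, 1 of 21 potassium and water genes (Atp1b1), 1 of 4 telencephalic genes (Lef1), 1 of 19 regional genes from outside the telencephalon (Zic5) and 4 of 20 lipid genes, beside 5.66% of all genes. The reactive genes were Hspb1, Tm4sf1 and Vim, and the fibrous genes were Vim and Dbi. Vim had 9.57 CPM in mouse 1 and 58.0 CPM in mouse 2, but 5.01 and 5.58 CPM in marker-restricted cells. The lipid genes included Hmgcs1, Idi1 and Cyp51 of sterol synthesis, with Hmgcs1 at 73.8 CPM in mouse 1 and 192.8 CPM in mouse 2. Gli2, an effector of hedgehog signalling, was the listed gene higher in mouse 1, at 374.0 CPM and 179.8 CPM in mouse 2.

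**Figure D5:**
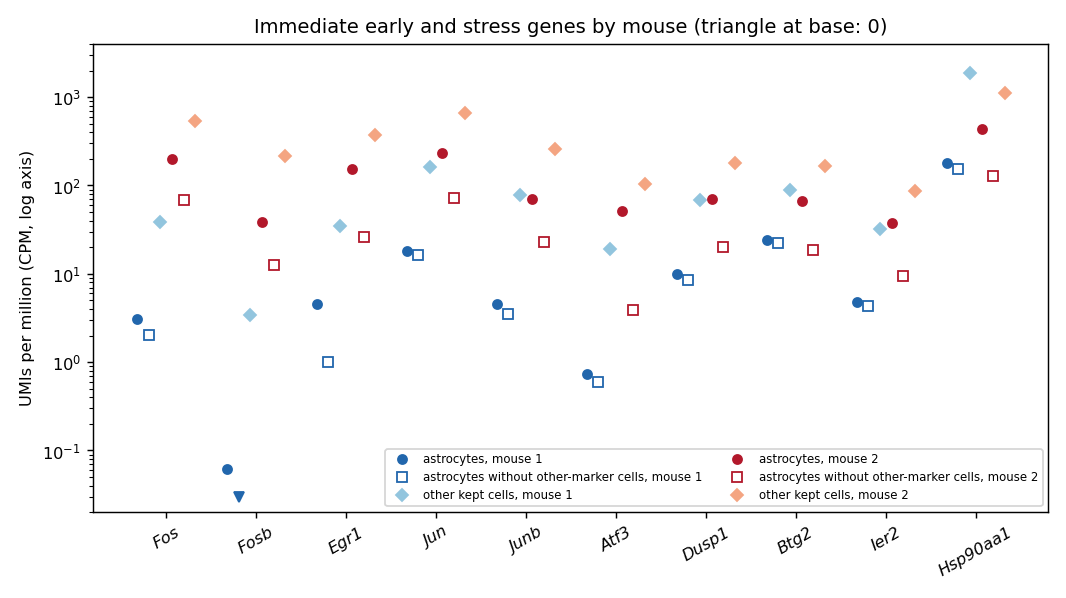
CPM of 10 immediate early and stress genes on a log axis in all selected astrocytes (circles), marker-restricted astrocytes (open squares) and the other kept cells (diamonds) of mouse 1 (blue) and mouse 2 (red). For Fos, Fosb, Egr1 and Jun every symbol of mouse 2 lies above the matching one of mouse 1, and for most genes the marker-restricted value of mouse 2 lies below the value of all selected cells.

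Ranked by their spread over cells beyond counting noise, the genes most variable among astrocytes in both mice were the haemoglobin genes Hba-a1, Hba-a2 and Hbb-bs, the mural gene Vtn, and the neuronal genes Cntnap2 and Nrg3. In marker-restricted cells the haemoglobin genes stayed and Slc38a1, Ctnna3 and Immp2l took the other places. Slc38a1 was found in 14.2% of thinned cells in mouse 1 and 17.4% in mouse 2, with up to 21 and 22 UMIs in 1 cell, against 3.90% and 5.0% of oligodendrocyte-marker cells. Slc38a1 is also among the higher calls in Gfap-high cells.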

How the data were processed

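Per the submitters' processing notes, reads were processed with Cell Ranger 7.1.0 on the mm10 genome; Seurat 5 also appears there, without a stated use. The authors deposited counts of UMIs, not normalized, per gene and barcode, 1 matrix per mouse, from a 3′ v3 kit per the labels. Whether counting used introns or strand was not given in the sources used here, so overlapping or antisense genes cannot be told apart. Filters and the astrocyte rule are given with the results. The deposited barcodes numbered 7889 and 12107, of which 1156 and 1849 fell below the minimum genes or UMIs and 367 and 820 exceeded the mitochondrial limit. Scrublet (through scanpy 1.11.5, Python 3.11.15) was run per mouse at an expected 0.8% per 1000 barcodes.

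CPM are UMIs summed over cells, per 1000000 of the summed total. Since 3′ counts depend on transcript and primer, levels are compared between cells and not between genes. For shares per cell, each cell was thinned without replacement to 5000 UMIs (seed 1). Exact 95% intervals are binomial for shares and Poisson for summed counts. The splits used edgeR 4.0.16 (R 4.3.3, limma 3.58.1) on 6 sums each (2 mice by 3 levels; 4 for the wider Gfap cut), TMM, filterByExpr, a robust quasi-likelihood fit on level plus mouse. Residual degrees of freedom were 2 (1 for the wider cut), so p-values lean on the spread shared over genes (biological coefficient of variation 0.164 for Gfap and 0.127 for Agt), and they rest on 2 animals. The mouse entered as a block because both levels of a pair come from the same animal. The SE printed with an edgeR log2 fold change was derived from the test. It is the absolute log2 fold change divided by the square root of the F statistic. The script was tested on simulated counts. DESeq2 1.42.0 was an alternative.

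The members, gene lists, rules and tests were chosen with earlier results of these data known. Named genes were the 4 of highest mean CPM in each list, up to 4 called members per list and split, up to 8 called genes higher and 8 lower per split from outside the lists with at least 50 CPM, and 6 overdispersed genes; other genes in the text were chosen after their values were seen. Gene coordinates came from GENCODE vM21. The restriction to cells without ependymal, neuronal or mural markers was added after seeing the data. Every column was mapped to a mouse. Some genes are not reported here.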

Additional observations from a re-analysis of the deposited data

How the results depend on the processing

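The number of calls in the Gfap split (96) became 183 with no filter on low counts, 183 with thinning to 3000 UMIs, where mouse 2 had no Gfap-high cell, 21 with no replicate block and 48 at the wider cut in marker-restricted cells, and ranged from 64 to 141 otherwise. In each mouse alone, 82 to 84 of the 96 lay past 2-fold in the same direction, a value with no test. The Agt split (454 calls) gave 832 with no filter, 0 with no replicate block, 189 at a mitochondrial limit of 5%, 107 without cells with neuronal markers, 218 with the selection at 10 per 10000 and 158 in marker-restricted cells. In each mouse alone, 408 to 432 of its calls lay past 2-fold in the same direction, again with no test. The same 2 mice made the calls of both splits, so these counts per mouse are no independent support. The pairing rests on the shared animal, and the fit without the block put the difference between the mice into the spread. The astrocyte share was 15.9% and 3.61% at a mitochondrial limit of 5%, 16.1% and 3.40% in marker-restricted cells, and 3.67% in mouse 2 without cells with neuronal markers. The 466 genes that differed between the mice became 214 with the selection at 10 per 10000, 168 in marker-restricted cells and 185 at 50 CPM. The 2906 genes past 2-fold against the other cells ranged from 1943 to 3137, and from 3643 to 4224 in each mouse alone. Of the single-gene values, 594 kept direction and call, 201 kept direction and lost the call, and 7 turned: Cdon to -3.76 with thinning to 3000 UMIs, Cst3 in the Gfap split to 0.42 at the wider cut in all selected cells and 0.25 at the wider cut in marker-restricted cells, and in the Agt split Lef1 to 0.36 and 0.24 without neuronal-marker cells and in marker-restricted cells, and Egr1 to 0.61 and Fosb to 0.19 in marker-restricted cells. Fos in the Agt split was not among the values counted here, though it too turned in marker-restricted cells. The cause of these turns was not tested. Depth limits scarce genes, which pass the filter on low counts mainly where their level is high.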
